A study of Mus musculus with 6 samples.

Results

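Members of the tumour necrosis factor (TNF) superfamily were examined in skin of mice carrying the LynDN transgene and of wild-type (WT) mice. The members were the genes whose only symbol in the array's annotation starts with Tnfsf or Tnfrsf, together with Tnf, Lta, Ltb, Cd40, Cd40lg, Cd27, Cd70, Fas, Fasl, Ltbr, Eda2r, Traf1 to Traf6, Birc2, Birc3, Ripk1, Ripk2, Tradd, Fadd and Casp8. Of 18617 named genes on the array, 51 were members, read by 53 probes. They comprised 17 ligands, 5 receptors with a death domain, 16 receptors that bind TRAF adaptors, 3 decoy receptors, and 10 adaptors and effectors. Ripk1, Ripk2, Traf3 and Tnfrsf23 were not analysed here because no probe carried their name.

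The study compared total RNA from the skin of 3 LynDN transgenic mice with that of 3 WT mice on 2-colour arrays. Lyn is a tyrosine kinase of the Src family, and LynDN, written LynDeltaN in the series title, is a form that lacks the N-terminal part and is known to cause psoriasis-like skin inflammation in mice. The sources used here do not give the strain, age, sex and skin site of the mice, or the promoter that drives the transgene. The mice formed 3 pairs of 1 LynDN and 1 WT animal, and a dye swap of 2 arrays was made for each pair. LynDN mouse 1 was paired with WT mouse 1, LynDN mouse 2 with WT mouse 3, and LynDN mouse 3 with WT mouse 2, and a pair is numbered by its LynDN mouse. All values below are log2 ratios of the 2 genotypes, for which base 2 was assumed, and a pair value is the mean of the 2 arrays of a dye swap.

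Ligands of the TNF superfamily are mostly trimeric transmembrane proteins, some of which are shed from the cell surface. They bind receptors that can recruit death domain adaptors such as Tradd and Fadd, or TRAF proteins and the ubiquitin ligases Birc2 and Birc3, or both. Death domain adaptors can lead to Casp8 and cell death. TRAF proteins and these ligases lead to NF-kB and its target genes. In skin, TNF is made by keratinocytes and immune cells and is a therapeutic target in psoriasis.

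The direction of the ratios was not settled. The deposited table does not state which genotype is the numerator, so signs are given as deposited and a gene is said to lie on the positive or the negative side. The alarmins S100a9 and S100a8, which are abundant in psoriatic skin, were positive on all 6 arrays, with means of 5.54 ± 0.16 and 4.61 ± 0.12 (SD, n = 3 pairs). That would put LynDN in the numerator, but it is background knowledge and not a label, and 0 probes were named Lyn, so that the transgene itself could not be checked. If WT were the numerator, every sign in the text would turn.

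The unit of replication was the mouse pair (n = 3), and the number of arrays limits the precision. The array values had SDs from 0.258 to 0.360 across probes. Across 22879 rows, the 2 arrays of a dye swap correlated at 0.0239 in pair 1, 0.463 in pair 2 and 0.462 in pair 3. Over the 51 members the same correlation was -0.414 in pair 1, 0.352 in pair 2 and 0.392 in pair 3. Pair 1 also stood apart in genes of the sex chromosomes. The Y-linked Eif2s3y had pair values of 3.50, -0.00 and 0.03 in this order of pairs, and the Y-linked Kdm5d had 1.24, -0.05 and 0.13. Xist, the X-inactivation transcript, had -1.06, -0.09 and -0.14. The labels do not give the sex of the mice, and in pair 1 a difference in sex cannot be told apart from genotype. Results that rest on pair 1 are therefore also given without it. One array carries another date in the labels than the other arrays, a batch of 1 that could not be tested. A ratio carries no level, so the presence of a cell type could not be checked from these values. In whole skin, fewer cells of a type and less RNA per cell cannot be told apart.

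None of the 51 members passed the test across all rows (limma on the 3 pair values, Benjamini-Hochberg adjusted p under 0.05), against 0.0175% of all rows, which were the 4 genes S100a9, S100a8, Krt16 and Ccl20. The smallest adjusted p among members was 0.2785, for Tnf and Tnfrsf1a. At an unadjusted p under 0.05 there were 8 members on the positive side, where 5.92% of all rows stood, and 3 on the negative side, where 6.41% of all rows stood. The 11 were 21.6% of the members, beside 12.3% of all rows. Most members lay close to 0: 41 of 51 had a mean under 0.2 in absolute value (80.4%, beside 87.6% of all rows). The median over members was 0.02, with pair medians of -0.01, 0.03 and 0.06, beside -0.01 over all rows. Treating the 6 arrays with the mouse pair as a replicate block also passed 0 members, beside 1.06% of all rows (0.603% positive, 0.459% negative), and gave 11 members on the positive side (6.95% of all rows) and 2 on the negative side (7.55% of all rows) at an unadjusted p under 0.05, which 14.5% of all rows reached. The smallest adjusted p was then 0.0622, for Tnfrsf1a. With 3 pairs an exact sign-flip test of a single gene cannot give a two-sided p below 0.25.

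In all 3 pairs 12 members were positive, where 15.5% of all rows were, and 7 were negative, where 20% of all rows were. On all 6 arrays 5 members were positive, namely Tnf, Tnfsf11, Cd70, Tnfrsf21 and Tnfrsf12a, where 3.72% of all rows were. Tnfrsf19 and Traf1 were negative on all 6 arrays, where 4.31% of all rows were.

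**Figure D1:**
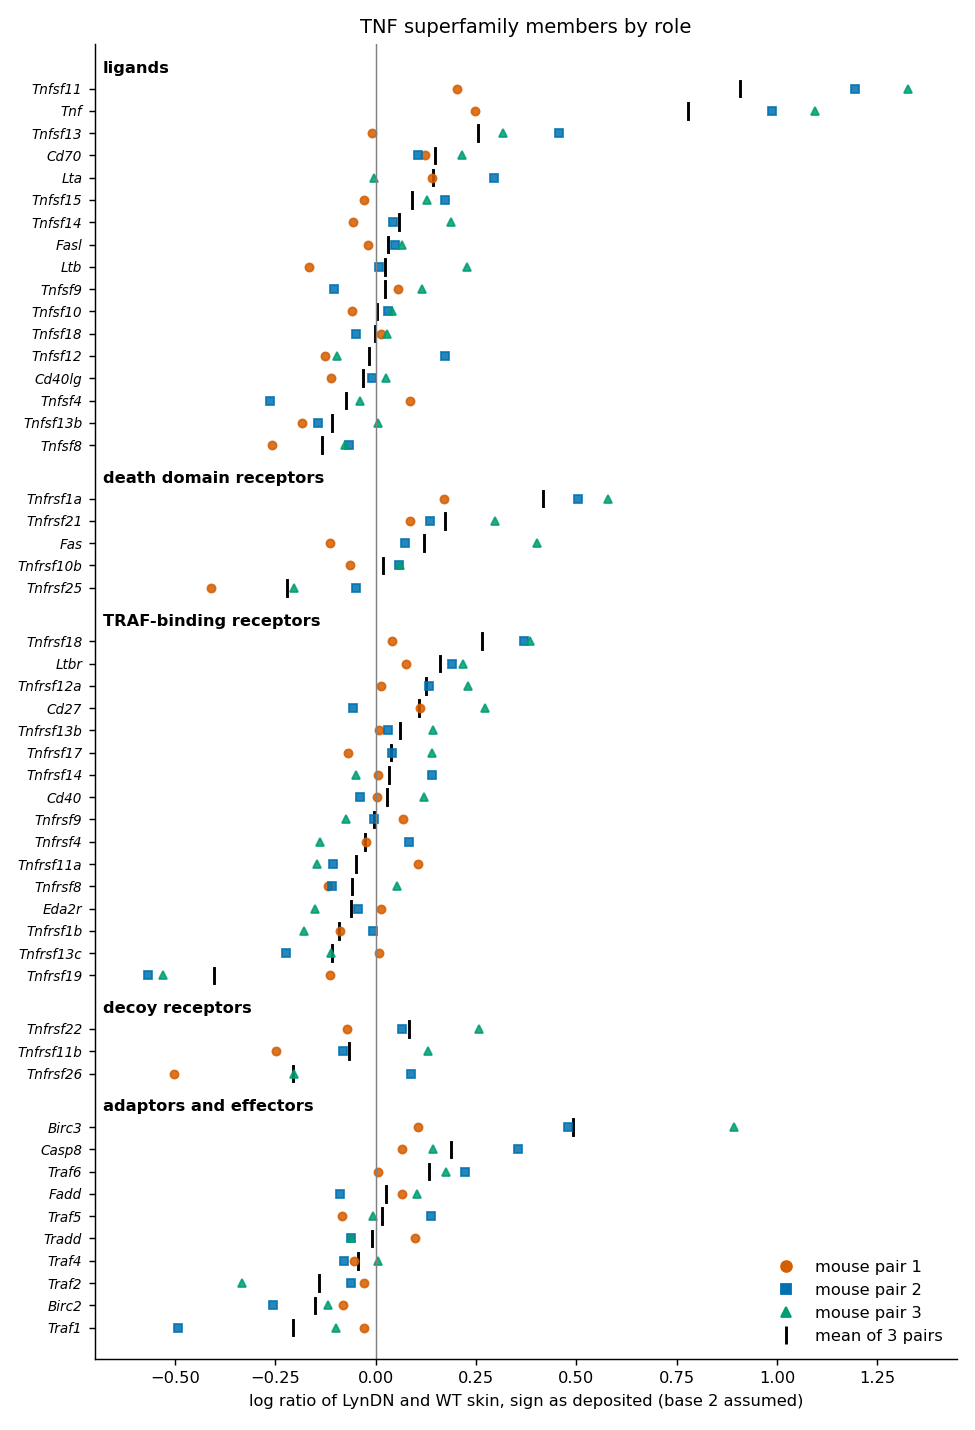
Log2 ratio of LynDN and WT skin, sign as deposited, for the 51 members grouped by role. Each marker is the mean of the 2 dye-swap arrays of a mouse pair, and the black bar is the mean of the 3 pairs. Tnfsf11 and Tnf lie farthest to the right, Tnfrsf19 farthest to the left, and in these 3 genes pair 1 lies closer to 0 than pairs 2 and 3.

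Tnf, Tnfsf11, Tnfrsf1a and Tnfrsf19 had the 4 smallest p-values among members, and for that reason their promoters are shown. The sequences are those of RefSeq on GRCm38.p6, from 250 bases before the annotated start to 50 after it, 5′ to 3′ on the strand of the gene. Capitals mark matches, on either strand, to an NF-kB-type motif of GGG, any 5 bases and CC. The windows are chr17:35201958-35202257 for Tnf (minus strand), chr14:78307994-78308293 for Tnfsf11 (minus strand), chr6:125349473-125349772 for Tnfrsf1a (plus strand), and chr14:61046806-61047105 and chr14:61037938-61038237 for the 2 starts of Tnfrsf19 (minus strand).
Tnf: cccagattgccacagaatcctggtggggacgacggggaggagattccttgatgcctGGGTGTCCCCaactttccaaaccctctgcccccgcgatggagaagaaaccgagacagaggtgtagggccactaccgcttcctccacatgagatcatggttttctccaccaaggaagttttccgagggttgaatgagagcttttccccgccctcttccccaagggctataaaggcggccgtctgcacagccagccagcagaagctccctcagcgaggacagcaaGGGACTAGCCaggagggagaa
Tnfsf11: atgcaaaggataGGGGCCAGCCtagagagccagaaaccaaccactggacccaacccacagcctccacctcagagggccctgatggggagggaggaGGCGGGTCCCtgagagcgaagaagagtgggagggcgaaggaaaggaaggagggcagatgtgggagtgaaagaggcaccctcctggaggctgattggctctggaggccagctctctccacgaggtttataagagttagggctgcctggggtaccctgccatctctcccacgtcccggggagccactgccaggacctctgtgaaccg
Tnfrsf1a: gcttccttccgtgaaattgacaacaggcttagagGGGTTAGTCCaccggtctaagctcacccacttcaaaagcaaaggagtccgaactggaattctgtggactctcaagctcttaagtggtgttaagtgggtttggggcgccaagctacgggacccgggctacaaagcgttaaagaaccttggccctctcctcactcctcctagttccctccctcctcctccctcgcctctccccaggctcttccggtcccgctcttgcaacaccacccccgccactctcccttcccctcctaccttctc
Tnfrsf19, first start: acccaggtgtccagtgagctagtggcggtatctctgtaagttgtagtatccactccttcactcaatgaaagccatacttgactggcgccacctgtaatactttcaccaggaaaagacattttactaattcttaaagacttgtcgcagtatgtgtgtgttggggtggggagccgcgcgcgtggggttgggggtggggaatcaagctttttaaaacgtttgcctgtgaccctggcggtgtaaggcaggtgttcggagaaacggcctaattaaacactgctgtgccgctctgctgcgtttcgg
Tnfrsf19, other start: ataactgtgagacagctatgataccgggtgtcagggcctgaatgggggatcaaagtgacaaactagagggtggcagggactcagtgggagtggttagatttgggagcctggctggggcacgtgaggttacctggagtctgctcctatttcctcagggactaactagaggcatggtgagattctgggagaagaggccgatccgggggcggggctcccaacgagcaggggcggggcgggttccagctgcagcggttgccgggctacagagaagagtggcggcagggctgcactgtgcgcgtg
In Tnf the letters matched at bases -194 to -185, as GGGTGTCCCC on both strands, and at 29 to 38 as GGGACTAGCC, both counted from the start. In Tnfsf11 they matched at -238 to -229 as GGGGCCAGCC and, on the other strand, at -155 to -146. In Tnfrsf1a they matched once, as GGGTTAGTCC at -216 to -207. Neither Tnfrsf19 window held a match, and none of these windows held TGANTCA, the AP-1 type site searched on both strands. The NF-kB-type motif was present in 28 of the 45 member promoters given (62.2%, for 40 genes) and in 50.8% of 32851 promoters of the same length. TGANTCA was present in 15.6% of the member promoters and in 7.81% of all. A match is a description of letters and not of a bound site.

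Among ligands, Tnfsf11 had the highest mean ratio of all members. Tnfsf11, also called RANKL, is the ligand of RANK and is best known for osteoclast formation. It had 0.06, 1.37 and 1.54 on the arrays with LynDN in Cy5 of pairs 1, 2 and 3, and 0.35, 1.02 and 1.11 on those with LynDN in Cy3. All 6 arrays were positive, and the 4 arrays of pairs 2 and 3 did not overlap with the 2 of pair 1. The mean was 0.91 ± 0.61 (SD, n = 3), with a 95% interval of 0.315 to 1.501 in log2 units (limma adjusted p = 0.294). That mean corresponds to a 1.88-fold ratio. Tnf, the founding ligand of the family, had 0.17, 1.14 and 1.06 with LynDN in Cy5 and 0.33, 0.83 and 1.13 with LynDN in Cy3. It was likewise positive on all 6 arrays and low in pair 1. Its mean was 0.78 ± 0.46 (SD, n = 3), with an interval of 0.32 to 1.23 in log2 units (adjusted p = 0.2785), and corresponds to a 1.71-fold ratio. These 2 ligands were the only members at 1.5-fold or more on the positive side, where 1.19% of all rows were, and no member was on the negative side, where 0.402% of all rows were.

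Tnfsf13, or APRIL, a survival factor of plasma cells, had pair values of -0.01, 0.46 and 0.32 and a mean of 0.26 ± 0.24 (adjusted p = 0.406). Its interval, -0.00 to 0.51, reached 0. Cd70, the ligand of Cd27 on T cells, had a small ratio that was alike in all pairs, with 0.12, 0.11 and 0.21 and a mean of 0.15 ± 0.06 (adjusted p = 0.3841). Tnfsf8, the ligand of Tnfrsf8, lay on the negative side in all 3 pairs, with a mean of -0.13 ± 0.11 (adjusted p = 0.4714). The lymphotoxin genes differed in their spread: Lta had 0.14 ± 0.15 and Ltb had 0.02 ± 0.20. The remaining 10 ligands had means between -0.11 and 0.09. On the positive side these were Tnfsf15 with 0.09, Tnfsf14 (LIGHT) with 0.06, Fasl with 0.03, Tnfsf9 with 0.02 and Tnfsf10 (TRAIL) with 0.00. On the other side were Tnfsf18 with -0.00, Tnfsf12 (TWEAK) with -0.02, Cd40lg with -0.03, Tnfsf4 with -0.07 and Tnfsf13b (BAFF, a B cell survival factor) with -0.11. Of the 17 ligands, 3 had an unadjusted p under 0.05, all on the positive side, where 5.92% of all rows stood.

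Among the death domain receptors, Tnfrsf1a lay farthest from 0. Tnfrsf1a, the main TNF receptor of most tissues, had -0.06, 0.24 and 0.35 on the arrays with LynDN in Cy5 and 0.40, 0.77 and 0.81 on those with LynDN in Cy3. In each pair the Cy5 array was the lower one, and 5 of 6 arrays were positive. Its mean was 0.42 ± 0.22 (SD, n = 3), with pair values of 0.17, 0.50 and 0.58, an interval of 0.18 to 0.66 and an adjusted p of 0.2785. Tnfrsf21, or death receptor 6, was positive on all 6 arrays with a mean of 0.17 ± 0.11 (adjusted p = 0.389). Fas, the receptor of Fasl, had pair values of -0.11, 0.07 and 0.40 on both sides of 0 and a mean of 0.12 ± 0.26 (adjusted p = 0.6821). Tnfrsf10b, the mouse TRAIL receptor, had 0.02 ± 0.07. Tnfrsf25, the receptor of Tnfsf15, was negative in all pairs, with -0.41, -0.05 and -0.20 and a mean of -0.22 ± 0.18 (adjusted p = 0.3921).

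The TRAF-binding receptors held the most negative member. Tnfrsf19, or TROY, a receptor expressed in hair follicles, had -0.21, -0.58 and -0.49 on the arrays with LynDN in Cy5 and -0.02, -0.55 and -0.57 on those with LynDN in Cy3. All 6 arrays were negative, and the arrays of pairs 2 and 3 lay farther from 0 than those of pair 1. The mean was -0.40 ± 0.25 (SD, n = 3), with an interval of -0.67 to -0.13 (adjusted p = 0.2977). The list of 8 hair follicle markers had pair medians of 0.12, -0.81 and -0.45, from 1 gene with a positive mean and 7 with a negative one, and 0 of 8 passed. Without pair 1, 5 of the 8 passed, all on the negative side, beside 1.67% of all rows there. Their part in the ratio of Tnfrsf19 was not tested.

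Tnfrsf18, or GITR, a receptor of regulatory T cells, had pair values of 0.04, 0.37 and 0.38 and a mean of 0.26 ± 0.19 (adjusted p = 0.3516). Its pair 2 value averages 0.74 with LynDN in Cy3 and 0.0007 with LynDN in Cy5. The values of its only probe carry at most 3 significant digits. The T cell marker list of 9 genes had pair medians of -0.06, -0.06 and 0.03. Ltbr, the lymphotoxin beta receptor, was positive in all pairs with 0.16 ± 0.08 (adjusted p = 0.3733), but 2 of its 6 arrays were negative. Tnfrsf12a, the receptor of TWEAK, was positive on all 6 arrays with a mean of 0.13 ± 0.11 (adjusted p = 0.4923). Tnfrsf1b, the other TNF receptor, had pair values of -0.09, -0.01 and -0.18 and a mean of -0.09 ± 0.09 (adjusted p = 0.5696), with an interval of -0.24 to 0.06. Tnfrsf11a, the RANK receptor of Tnfsf11, had 0.11, -0.11 and -0.15 and a mean of -0.05 ± 0.14, with an interval of -0.23 to 0.13.

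The other 10 TRAF-binding receptors had means from -0.11 to 0.11. The highest was Cd27 with 0.11, and the lowest was Tnfrsf13c (the BAFF receptor) with -0.11. Between them lay Tnfrsf13b with 0.06, Tnfrsf17 (BCMA) with 0.04, Tnfrsf14 with 0.03, Cd40 with 0.03, Tnfrsf9 with -0.00, Tnfrsf4 (OX40) with -0.03, Tnfrsf8 (CD30) with -0.06 and Eda2r with -0.06. The B cell marker list of 6 genes had a median of 0.01. The role as a whole was even, with 8 positive and 8 negative means.

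No decoy receptor had an unadjusted p under 0.05. Tnfrsf11b, or osteoprotegerin, which binds both Tnfsf11 and Tnfsf10, had pair values of -0.25, -0.08 and 0.13 and a mean of -0.07 ± 0.19, with an interval of -0.29 to 0.15. Tnfrsf26 had -0.21 ± 0.30. Tnfrsf22, a mouse decoy receptor for TRAIL, had 0.08 ± 0.17, and its probes disagreed: on the array of pair 3 with LynDN in Cy5 one probe had 1.26 and the other -0.42. Tnfrsf22 and Tnfrsf26 belong to a cluster of similar genes, so cross-hybridisation between them is uncertain.

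Among adaptors and effectors, Birc3 had the highest mean. Birc3, the ubiquitin ligase cIAP2 and itself a known NF-kB target, had 0.60, 0.86 and 1.47 on the arrays with LynDN in Cy5 and -0.39, 0.10 and 0.32 on those with LynDN in Cy3. The Cy5 array was the higher one in each pair, and the 2 orientations did not overlap. The pair values were 0.10, 0.48 and 0.89, with a mean of 0.49 ± 0.39 (SD, n = 3) and an adjusted p of 0.3413. Birc2, the neighbouring gene for cIAP1, was negative in all pairs with -0.15 ± 0.09 (adjusted p = 0.4034), although 2 of its 6 arrays were positive.

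Casp8, the initiator caspase of death receptors, had 0.19 ± 0.15 (adjusted p = 0.406), with positive values in all pairs. Traf6, which also serves Toll-like and interleukin-1 receptors, had 0.13 ± 0.11 (adjusted p = 0.477). Traf2, the main adaptor of the TNF receptors, was negative in all pairs, with -0.03, -0.06 and -0.33, a mean of -0.14 ± 0.17 (adjusted p = 0.5231) and an interval of -0.34 to 0.06. Its pair 3 value averages -0.62 with LynDN in Cy3 and -0.05 with LynDN in Cy5. The values of its only probe carry at most 3 significant digits. Traf1 was negative on all 6 arrays with -0.21 ± 0.25 (adjusted p = 0.4932), and its pair 2 value of -0.49 was far from the other two. Fadd and Tradd, the death domain adaptors, had means of 0.03 and -0.01, Traf5 had 0.02 and Traf4 had -0.04. The adaptors therefore lay on both sides, with 5 positive and 5 negative means.

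**Figure D2:**
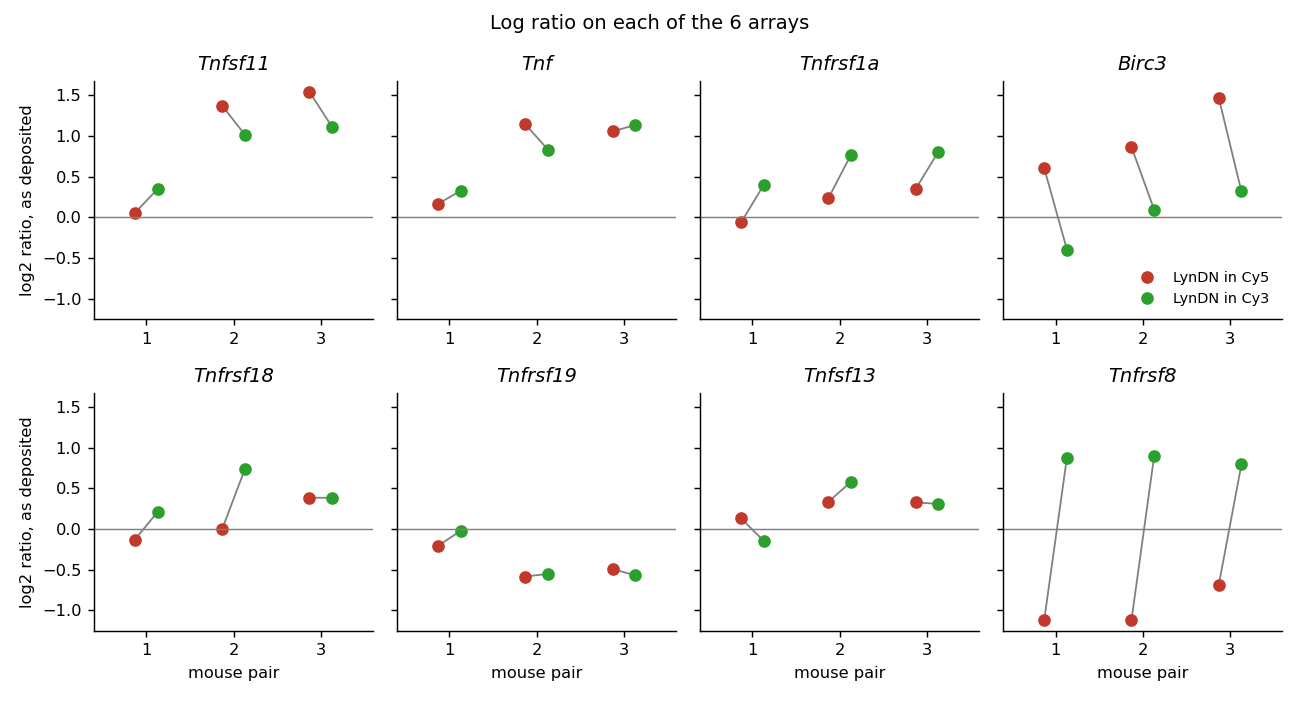
Log2 ratio as deposited on each of the 6 arrays for 8 members, by mouse pair. Red points are arrays with LynDN in Cy5, green points arrays with LynDN in Cy3, and a grey line joins the 2 arrays of a pair. Tnf and Tnfsf11 are positive on all arrays, Birc3 is higher in red in each pair, and Tnfrsf8 changes sign with the dye in each pair.

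Leaving out pair 1 changed which members passed. With pairs 2 and 3 alone, 6 of 51 members passed at an adjusted p under 0.05 (11.8%), beside 4.88% of all rows. On the positive side, which held 3.22% of all rows, were Tnfsf11 with 1.26 (adjusted p = 0.002268), Tnf with 1.04 (adjusted p = 0.003549), Tnfrsf1a with 0.54 (adjusted p = 0.01858), Tnfrsf18 with 0.38 (adjusted p = 0.04141) and Birc3 with 0.69 (adjusted p = 0.04296). On the negative side, with 1.67% of all rows, was Tnfrsf19 with -0.55 (adjusted p = 0.01733). That fit rests on 2 pairs and 1 degree of freedom per gene before moderation. Without pair 2 or without pair 3, none of the members passed, but those fits called only 2 and 4 of all 22879 rows. In 27 of 51 members pair 1 had the smallest absolute value of the 3 pairs (52.9%, beside 42.3% of all rows). Pair values of the members correlated at 0.84 between pairs 2 and 3, at 0.427 between pairs 1 and 2 and at 0.508 between pairs 1 and 3, as a description over 51 genes that share the arrays. Over all rows the same values were 0.745, 0.350 and 0.386.

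Disagreement between dye orientations was about as common among members as among all rows. The difference between the arrays of a swap, averaged over pairs and divided by 2, exceeded the mean ratio in absolute value in 26 of 51 members (51%, beside 53.2% of all rows). For 7 members, Cd27, Fadd, Tnfrsf11b, Tnfrsf13b, Tnfrsf8, Tnfsf10 and Tradd, all arrays of one orientation were on the opposite side of 0 from all arrays of the other, which held for 11.4% of all rows. Tnfrsf8, a receptor of activated lymphocytes, had -1.12, -1.12 and -0.69 with LynDN in Cy5 and 0.88, 0.90 and 0.79 with LynDN in Cy3. The difference of -1.83 passed the dye test (limma on the 3 swap differences, 1 per pair, adjusted p = 0.01099), which 0.573% of all rows did. The mean ratio of Tnfrsf8 over pairs was -0.06 ± 0.10. Birc3 was the other member past that test, with a difference of 0.97 (adjusted p = 0.03793). For Tnfrsf1a the difference was -0.49 (adjusted p = 0.07703), while for Tnf it was 0.02. With the 3 arrays of LynDN in Cy5 alone 0 members passed, beside 0.105% of all rows, and with those of LynDN in Cy3 alone Tnfrsf8 passed, beside 0.236% of all rows. Averaging a swap removes a dye effect of equal size on both arrays.

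**Figure D3:**
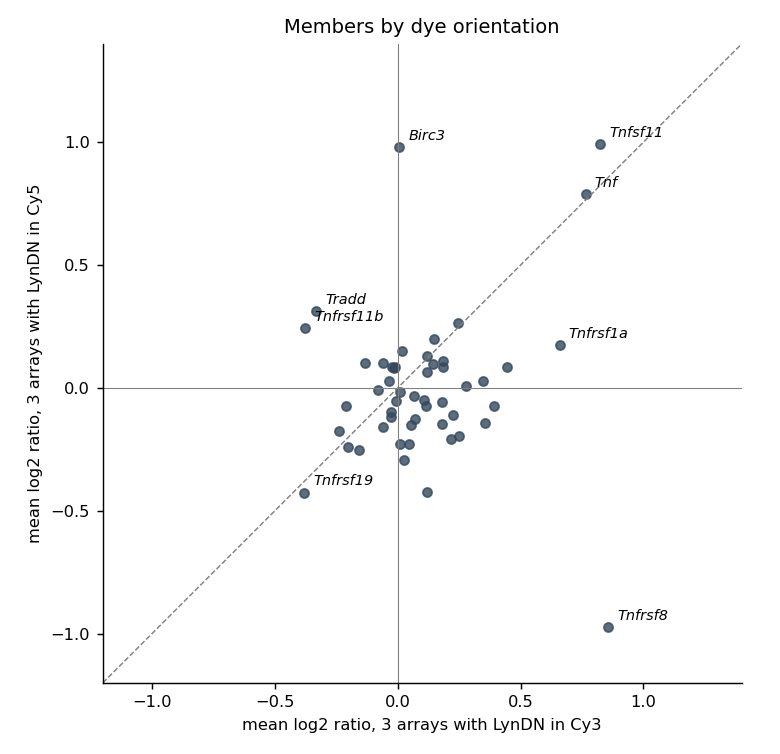
Mean log2 ratio of the 51 members on the 3 arrays with LynDN in Cy5 (vertical axis) and on the 3 arrays with LynDN in Cy3 (horizontal axis), with the line of equality dashed. Tnfrsf8 lies at -0.97 on the vertical and 0.86 on the horizontal axis, Birc3 at 0.98 and 0.01, while Tnf lies close to the line at 0.79 and 0.77.

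Ligands and receptors were then set side by side over 26 textbook pairings of 17 ligands with 19 receptors. Tnf and Tnfrsf1a were both on the positive side in every pair, with 0.78 ± 0.46 and 0.42 ± 0.22, while Tnfrsf1b had -0.09 ± 0.09. Tnfsf11, at 0.91 ± 0.61, stood beside values near 0 for its receptor Tnfrsf11a (-0.05 ± 0.14) and its decoy Tnfrsf11b (-0.07 ± 0.19). For Tnfrsf18, with 0.26 ± 0.19, the ligand Tnfsf18 had -0.00 ± 0.04. Tnfsf13 had 0.26 ± 0.24, and its receptors Tnfrsf13b and Tnfrsf17 had 0.06 ± 0.07 and 0.04 ± 0.10. Tnfsf15 and its receptor Tnfrsf25 lay on opposite sides, with 0.09 ± 0.11 and -0.22 ± 0.18. Differences between a ligand and its receptor were not tested, since a ratio of one probe carries no level that could be set against another.

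**Figure D4:**
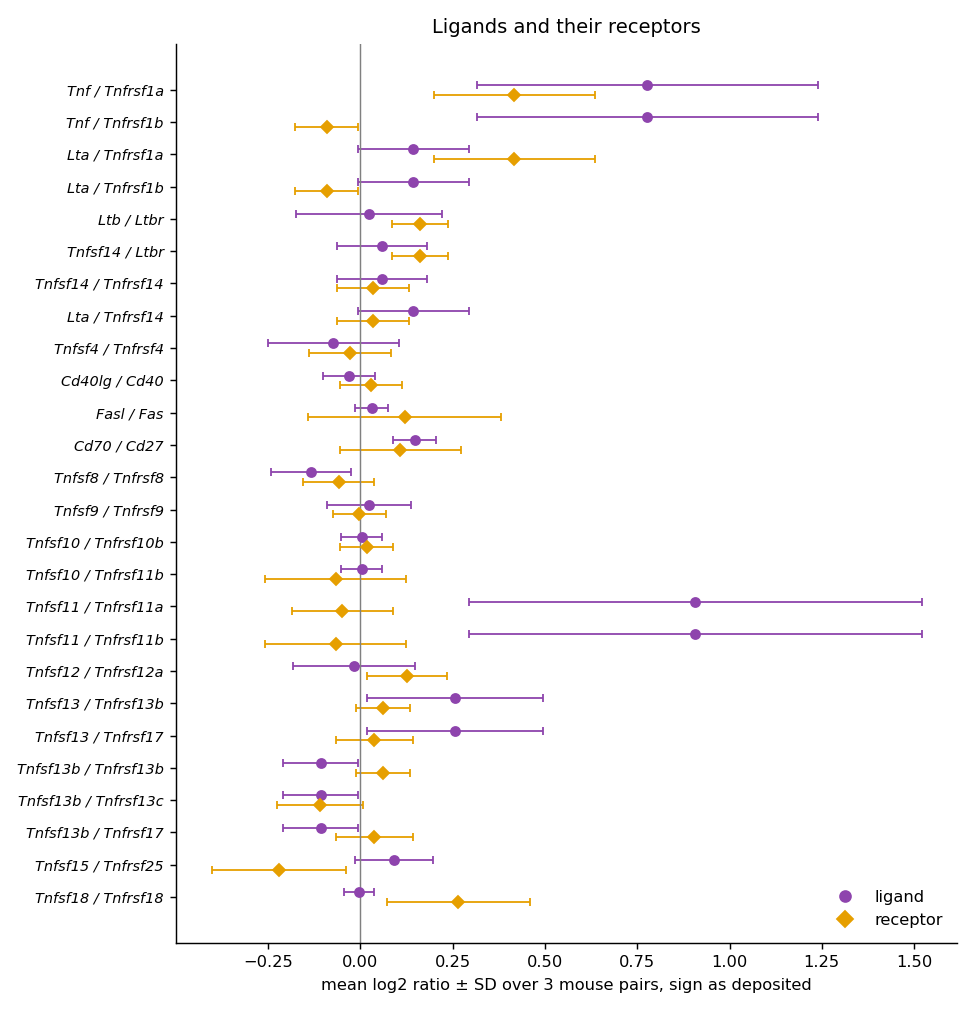
Mean log2 ratio with its SD over 3 mouse pairs, sign as deposited, for the ligand (purple circle) and the receptor (orange diamond) of 26 pairings. The Tnf pairings with Tnfrsf1a and Tnfrsf1b and the Tnfsf11 pairings with Tnfrsf11a and Tnfrsf11b hold the ligands farthest from 0, and most other points lie within 0.2 of 0.

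Members that lie next to each other in the genome were set side by side. Of the members, 21 have a start within 100 kb of another and form 9 clusters in the RefSeq annotation. On chromosome 17, Tnf had 0.78 between Ltb with 0.02 and Lta with 0.14. On chromosome 6, Tnfrsf1a had 0.42, Ltbr 0.16 and Cd27 0.11. On chromosome 9, Birc3 had 0.49 and Birc2 -0.15. On chromosome 4, Tnfrsf18 had 0.26 and Tnfrsf4 -0.03, and on chromosome 11, Tnfsf13 had 0.26 and Tnfsf12 -0.02. These are descriptions of the means, and no difference between neighbours was tested.

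Genes downstream of the receptors were read from lists chosen for this pathway, with earlier results of these data known. The counts from these lists are therefore descriptions and not independent support. In the NF-kB arm, with 24 genes measured of 26 listed, 0 passed on either side, 8 had an unadjusted p under 0.05 on the positive side (5.92% of all rows) and 1 on the negative side (6.41% of all rows), and the list median was 0.12. The negative one was Sharpin, with -0.16 ± 0.07 (limma adjusted p = 0.3799). The leading genes were feedback regulators and subunits: Nfkbiz, a nuclear inhibitor-like co-activator, had 1.58 ± 0.64 (adjusted p = 0.2375), Bcl3 had 1.02 ± 0.50 (adjusted p = 0.2706), Nfkbia, the inhibitor IkB-alpha, had 0.88 ± 0.50 (adjusted p = 0.2785), and Rel, the c-Rel subunit, had 0.59 ± 0.34 (adjusted p = 0.2785). The list's pair medians were 0.03, 0.16 and 0.18. With the replicate block Nfkbiz (adjusted p = 0.02177) and Bcl3 (adjusted p = 0.04368) passed on the positive side, and 0 genes on the negative side, beside 0.603% and 0.459% of all rows. Without pair 1, 8 genes of this arm passed on the positive side and 0 on the negative side, beside 3.22% and 1.67% of all rows. Nfkbiz also passed under quantile normalization (adjusted p = 0.01552).

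In the death arm, with 11 genes measured of 13 listed, 0 passed and 0 had an unadjusted p under 0.05, and the median was 0.02. Ripk3, the kinase of necroptosis, had pair values of -0.04, 0.52 and 0.39 and a mean of 0.29 ± 0.30 (adjusted p = 0.4209). Its substrate Mlkl had 0.17 ± 0.18, Cflar, an inhibitor of Casp8, had 0.07 ± 0.07, and Diablo, which antagonises the inhibitors of apoptosis, had -0.08 ± 0.10. Without pair 1, Ripk3 alone of this list of 11 passed, with 0.46 (limma adjusted p = 0.03429), beside 3.22% of all rows on the positive side.

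Among 19 genes induced by TNF or acting on it, all measured, 1 passed on the positive side and 0 on the negative side. That gene was Ccl20, a chemokine for Ccr6-bearing cells, with 2.13 ± 0.11 and an adjusted p of 0.003112. The call was lost under quantile normalization (adjusted p = 0.06129), without moderation of the variance (0.5345) and without pair 2 (0.07758). In this order, those fits called 72, 0 and 2 of all 22879 rows. An unadjusted p under 0.05 was reached by 12 on the positive side, Ccl20 included, and 1 on the negative side, beside 5.92% and 6.41% of all rows, and the median was 0.34. The negative one was Vcam1, with -0.26 ± 0.08 and negative values on all 6 arrays (limma adjusted p = 0.2785). Zc3h12a, a ribonuclease that limits cytokine mRNAs, had 1.65 ± 0.62 (adjusted p = 0.2375), Tnfaip2 had 0.89 ± 0.31 (adjusted p = 0.2375), and Zfp36, which destabilises Tnf mRNA, had 0.43 ± 0.20 (adjusted p = 0.2785). The list's pair medians were -0.01, 0.40 and 0.64. Tnf had the same order of pairs, as did the medians of all members and of the NF-kB arm. With the replicate block 4 passed on the positive side, namely Ccl20, Tnfaip2, Zc3h12a and Cxcl1, a neutrophil chemokine, and 0 on the negative side, beside 0.603% and 0.459% of all rows. Zc3h12a (adjusted p = 0.01389) and Tnfaip2 (adjusted p = 0.02238) also passed under quantile normalization. Without pair 1, 10 of the 19 passed on the positive side and 0 on the negative side, beside 3.22% and 1.67% of all rows, in a fit that called 1117 rows in all. Adam17, the enzyme that sheds TNF, had 0.15 ± 0.08 (adjusted p = 0.3907). Of 4 kin outside the naming rule, Relt had 0.07, Edar 0.02, Ngfr 0.01 and Eda -0.02, and none passed.

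**Figure D5:**
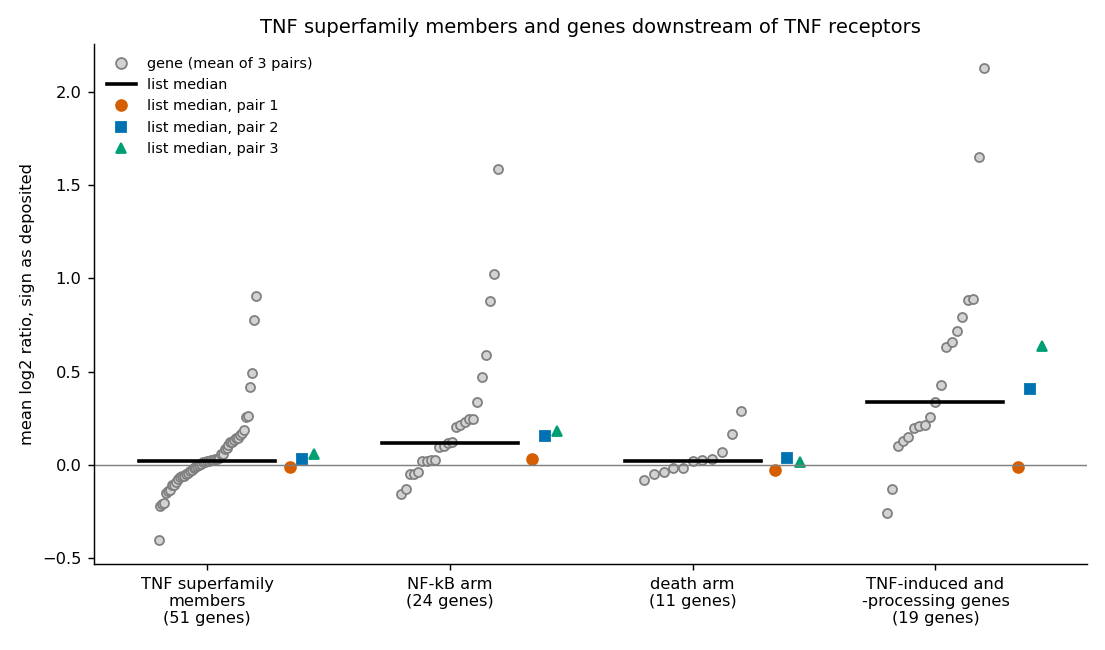
Mean log2 ratio, sign as deposited, of each gene (grey circles) among the TNF superfamily members and 3 downstream lists. Black lines are list medians, 0.02 for members, 0.12 for the NF-kB arm, 0.02 for the death arm and 0.34 for TNF-induced and TNF-processing genes. Coloured markers are the list medians in each mouse pair. Pair 1 lies nearest to 0 in the members, the NF-kB arm and the TNF-induced genes, but not in the death arm.

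Like Tnf, the marker lists of macrophages, neutrophils and mast cells had their lowest median in pair 1. So did the lists of keratinocytes, B cells and endothelial cells, and the members as a whole. The 9 macrophage and monocyte markers had pair medians of 0.03, 0.34 and 0.55, with 7 positive means, a range of means from -0.22 to 0.64 and 0 past the test. The 9 neutrophil markers had pair medians of 0.21, 0.51 and 0.43, with 9 positive means from 0.16 to 2.48 and 0 past the test. The 6 mast cell markers had pair medians of -0.10, 0.59 and 0.59, and 0 passed. Without pair 1, 6 of 9 neutrophil, 4 of 9 macrophage and monocyte and 4 of 6 mast cell markers passed on the positive side, beside 3.22% of all rows, in the same fit in which Tnf and Tnfsf11 passed. With the replicate block 1 neutrophil marker passed, Csf3r, the receptor of granulocyte colony-stimulating factor (adjusted p = 0.04855), beside 0.603% of all rows on the positive side, and 0 macrophage and monocyte or mast cell markers. The 9 keratinocyte markers had 0.12, 0.33 and 0.34, with means from -1.77 to 4.82. Of these, 1 passed, on the positive side, beside 0.0175% of all rows. With the block, 3 keratinocyte markers passed on the positive and 1 on the negative side, beside 0.603% and 0.459% of all rows. Without pair 1, 3 of the 9 passed on each side, beside 3.22% and 1.67% of all rows. Endothelial, dendritic and Langerhans, and fibroblast lists had medians of 0.02, -0.03 and -0.12. Summed levels of these lists could not be formed from ratios, and their part in the values of Tnf, Tnfsf11 and the TNF-induced genes was not tested.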

How the data were processed

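Skin RNA of 3 LynDN and 3 WT mice was hybridised to 6 arrays, after extraction with Qiagen and labelling with Ambion reagents, per the labels' protocols. The sources used here do not state the scanner, background correction or normalization. The table as deposited holds 1 log2 ratio per probe and array, with its base assumed and its numerator unstated, for 25344 probes with no missing value. Each array has a mean of 0. From row 21000 on, values carry few digits, and 7 member probes lie there. Spot intensities were not used, so background and saturation could not be examined.

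Probes were named through the platform annotation: 21082 had 1 symbol, 30 had several and 4232 had none. Probes of 1 symbol were averaged, which gave 22879 rows. All 51 members matched RefSeq (GRCm38.p6) by identifier. The 2 arrays of a swap were averaged, and the pairing is taken from the labels, which name the same 2 mice on both. limma 3.58.1 under R 4.3.3 (lmFit, eBayes, prior of 2.958 degrees of freedom) compared the mean of the pair values (3 per row) with 0. P-values were adjusted by Benjamini-Hochberg over all 22879 rows, at 0.05. Intervals are limma's 95% intervals. Alternatives were a fit of 6 arrays with dye as a term and the pair as a replicate block (duplicateCorrelation, consensus 0.1512), quantile normalization, centring, probe handling, no moderation, a robust prior, each dye alone and each pair left out. The labels name the mice as separate animals, and an SD over pairs does not show how far the 2 arrays of a swap agreed.

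Tnf, Tnfrsf1a, Tnfrsf1b, Traf2, Fas, the 16 members with the smallest p, the 6 with the largest absolute mean and up to 4 genes per pathway list with the smallest p were described in full, and other members by their mean in their role. The members and lists were chosen with earlier results of these data known. Tnfrsf8, Tnfrsf11a and Tnfrsf11b were given in more detail after their values were seen. On simulated data of 22879 rows with 200 changed, recovery was 94% at 2-fold and 99% at 4-fold, with 4.62% false calls, where the spread came from the fitted prior. Real rows that varied more between pairs missed the threshold at larger ratios, such as Krt6b at 28.2-fold (adjusted p = 0.1234) and Nfkbiz at 3.00-fold (0.2375), so these shares overstate what the test finds in such rows. matplotlib 3.10.9 (Python 3.11.15) drew the figures.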

Additional observations from a re-analysis of the deposited data

Results flagged for a closer look

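Tnfrsf8 and Birc3 differed between the dye orientations by limma on the 3 swap differences, 1 per mouse pair. For Tnfrsf8 the mean with LynDN in Cy5 minus that with LynDN in Cy3 was -1.83, from -0.97 and 0.86 (adjusted p = 0.01099). For Birc3 it was 0.97, from 0.98 and 0.01 (adjusted p = 0.03793).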

How the results depend on the processing

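The count of members past an adjusted p of 0.05 was 0 on each side in the fit of pair values. With the mouse pair as a replicate block it was also 0 on each side, the smallest adjusted p was 0.0622 (Tnfrsf1a), and 11 members on the positive and 2 on the negative side had an unadjusted p under 0.05, against 8 and 3. Over all rows the block fit called 243 rows and quantile normalization 72, against 4, and no moderation called 0. With pairs 1, 2 and 3 left out in turn, 1117, 2 and 4 rows were called. Leaving out each pair gave 0 to 5 positive and 0 to 1 negative members, all of them without pair 1, and the arrays with LynDN in Cy3 alone gave 1 positive (Tnfrsf8). At an unadjusted p under 0.05, no moderation gave 1 positive and 0 negative, leaving out each pair 2 to 11 positive and 0 to 3 negative, the arrays with LynDN in Cy5 alone 5 positive and 7 negative, and quantile normalization and centring 1 negative each. The shares of all rows at this threshold were not computed for these alternatives. These counts therefore cannot be read as results about the members. The sign turned with LynDN in Cy3 alone for Tnfrsf1b (0.0464), Birc2 (0.12), Tnfsf8 (0.0278), Edar (-0.0797) and Ngfr (-0.0384), and with LynDN in Cy5 alone for Ltbr (-0.0717) and Eda (0.11). Eda also turned under quantile normalization (0.0095). Leaving out each pair gave ranges across 0 for Fas (-0.02 to 0.24), Edar (-0.015 to 0.0474), Ngfr (-0.0061 to 0.0341) and Eda (-0.17 to 0.11). Of 35 described genes, 27 kept their sign under every alternative run for them, 12 in number except for Cflar, which has several probes and was run under 11. Ccl20 lost its call under quantile normalization (adjusted p = 0.06129), without moderation (0.5345) and without pair 2 (0.07758). With the block, Nfkbiz, Bcl3, Tnfaip2 and Zc3h12a passed, under quantile normalization Nfkbiz (0.01552), Zc3h12a (0.01389) and Tnfaip2 (0.02238), and with LynDN in Cy3 alone Tnfaip2 (0.04594). The cause of these changes was not tested.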
